A study of Homo sapiens with 2 samples.

Results

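The S100 calcium-binding family was followed here through 10 genes, S100A4, S100A6, S100A8, S100A9, S100A10, S100A11, S100A12, S100A13, S100P and S100Z. They were taken by name from the gene column of both raw signal files and of the normalized table, and all 12 of their probes were kept, out of 43317 gene and transcript names and 58201 probes. S100A11 and S100A12 had 2 probes each and the other genes 1. The comparison was between parental HL60 cells, labelled as untreated, and R-HL60 cells, a cytarabine-resistant line raised from them by continuous exposure to rising cytarabine concentrations. HL60 is an established line of human acute myeloid leukaemia cells that resemble promyelocytes. Cytarabine, a mainstay of leukaemia treatment, is a nucleoside analogue that halts DNA synthesis after phosphorylation in the cell. Both lines were grown in the same serum-supplemented RPMI medium. The sources used here do not say whether R-HL60 is 1 clone or whether the drug was present at harvest. Each line was represented by 1 one-colour array, so no difference below has a replicate, a standard error or a test, and line, culture and array cannot be told apart.

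S100 proteins are small EF-hand proteins that change shape when they bind calcium and then bind partner proteins. S100A8, S100A9 and S100A12 form the calgranulin group of neutrophils and monocytes. S100A8 and S100A9 pair as calprotectin, which accounts for much of the cytosolic protein of a neutrophil, sequesters metal ions and signals through TLR4 and the receptor RAGE. In myeloid cells both genes are known as late markers that rise as promyelocytes mature. Other members are expressed in many tissues and act mostly inside the cell, on the cytoskeleton, annexins and secretion.

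Signals are given as deposited, in arbitrary units. A level is the log2 signal relative to the array's own 75th percentile, and a difference is the level in R-HL60 minus that in parental cells, so a fold carries this scaling. A probe counted as measured when it lay above its array's median signal, the floor, which was 30.7 on the parental and 32.8 on the R-HL60 array. Where it was above the floor on 1 array only, the difference is a bound, computed against the floor. Of the 12 member probes, 10 were above the floor on both arrays, 1 on the parental array only and 1 on neither. Over all 28003 probes measured on both arrays the median difference was -0.03 with an SD of 0.28, and 95.9% lay within 1.5-fold. Only genes with several probes were measured more than once. The differences of such probes had a pooled SD of 0.19 over 4721 genes, from 0.29 to 0.10 across 10 brightness bins, and this spread leaves out the variation between cultures and arrays.

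The family did not move as a block. The calgranulins S100A8 and S100A9 had higher signals in R-HL60, S100Z had a lower one, and the other 7 genes were within 1.5-fold on their brightest probe. S100A9 was the one member at least 2-fold higher and S100Z, by its bound, the one at least 2-fold lower, that is 1 of 11 member probes above the floor in each direction. Among all 30197 probes above the floor on at least 1 array, 0.705% reached 2-fold in the higher and 0.285% in the lower direction. Over the 10 genes, each by its brightest probe, the median difference was 0.11 and 6 were above 0, beside a median of -0.03 and 43.3% above 0 over all 23547 genes above the floor on at least 1 array.

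**Figure D1:**
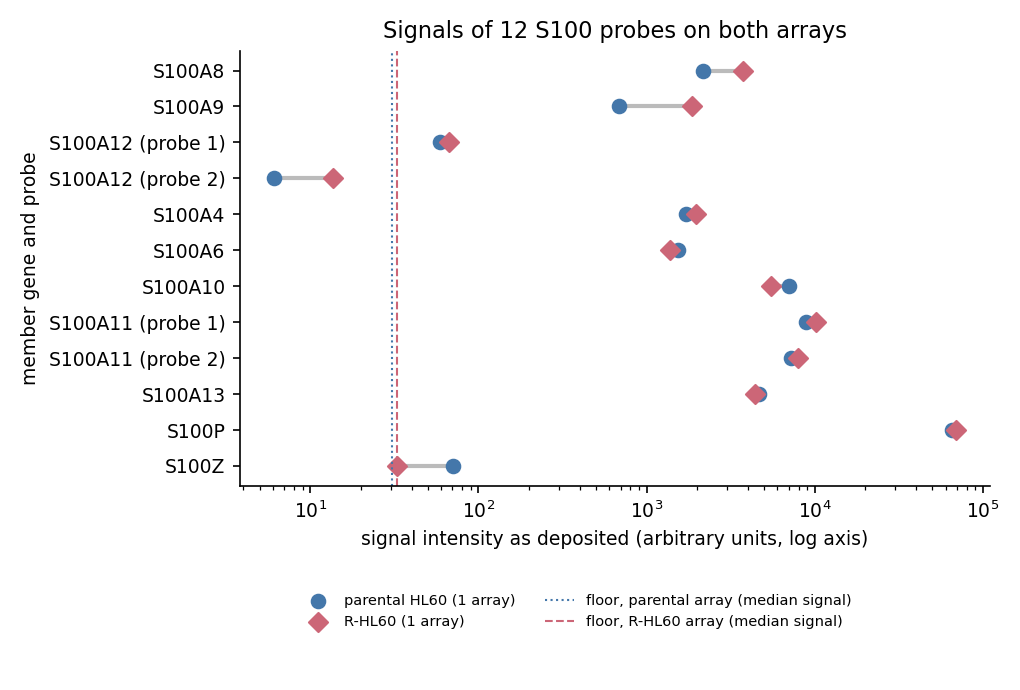
Signal of each of the 12 member probes on the parental HL60 array (circles) and on the R-HL60 array (diamonds), on a log axis in arbitrary units, with grey bars joining the pair and vertical lines at each array's median signal, used as the floor. S100A9, S100A8 and S100Z show the widest gaps among probes above the floor on at least 1 array; probe 2 of S100A12 lies left of both floors.

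S100A9, the larger subunit of calprotectin, gave a signal of 685 on the parental and 1849 on the R-HL60 array. These signals were 22.3 times and 56.3 times the floor. The difference was 1.42 on the log2 scale, or 2.68-fold higher in R-HL60. It was 10.5 times the probe-to-probe SD of 0.14 in its brightness bin, and 53 of the 28003 measured probes had a difference at least as high. Among the 2800 probes of the same bin 0.286% did. In RNA from a whole culture, more cells carrying a transcript and more transcript per cell cannot be told apart.

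S100A8, the partner subunit, went from 2152 to 3743. The difference was 0.79, or 1.73-fold, which stayed short of 2-fold but was 5.67 times the probe-to-probe SD of 0.14 in its bin. At least as high a difference was found for 353 of the 28003 measured probes, and for 0.571% of those in its bin. Both calprotectin genes were therefore higher on the R-HL60 array, to unequal degrees: the difference of S100A9 exceeded that of S100A8 by 0.63 on the log2 scale. In the authors' normalized intensities S100A9 stood at 680 and 1871 and S100A8 at 2110 and 3818.

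S100A12, the third calgranulin and a ligand of RAGE, had 1 measured probe, whose difference was small. This brighter probe gave 59.1 and 66.5, close to the floor on both arrays, and a difference of 0.16, within the probe-to-probe SD of 0.29 at that brightness. Its other probe, at 6.10 and 13.7, was below the floor on both arrays and gives no difference.

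The 250 bases before the RefSeq start of these genes are printed because S100A9, S100A12 and S100A8 follow one another in this order among the protein-coding genes of the RefSeq table and differ in how far their signals moved. The promoter of S100Z, the lowest member, is added. They are reference sequence of GRCh38.p14, not sequence read from these cells; the array files carry no coordinates. Capitals mark TATAAA on the gene's strand within 50 bases of the start. Also marked, on either strand, are matches to TTGCNNNAA, a motif labelled C/EBP-like here. So are GGG and CC with 5 bases of any kind between them, a motif labelled NF-kB-like. TTGCNNNAA is a single fixed form, and C/EBP sites with other letters or spacing were not searched for. The windows are chr1:153357604-153357853 on the plus strand for S100A9, chr1:153391074-153391323 on the minus strand for S100A8, chr1:153375622-153375871 on the minus strand for S100A12 and chr5:76874373-76874622 on the plus strand for S100Z. S100A8 has 3 start sites in the table, and the one shown is the one with TATAAA within 50 bases, so its window can overlap longer transcripts of the gene.
S100A9: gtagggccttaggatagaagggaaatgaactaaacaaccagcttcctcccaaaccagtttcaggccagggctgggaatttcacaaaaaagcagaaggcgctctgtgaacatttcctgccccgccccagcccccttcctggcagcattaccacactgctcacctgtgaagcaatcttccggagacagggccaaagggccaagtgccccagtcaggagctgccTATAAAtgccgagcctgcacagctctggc
S100A8: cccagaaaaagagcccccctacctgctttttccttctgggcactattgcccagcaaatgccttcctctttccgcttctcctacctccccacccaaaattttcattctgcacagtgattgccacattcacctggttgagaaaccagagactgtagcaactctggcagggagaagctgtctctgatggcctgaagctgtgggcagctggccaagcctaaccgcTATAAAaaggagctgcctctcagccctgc
S100A12: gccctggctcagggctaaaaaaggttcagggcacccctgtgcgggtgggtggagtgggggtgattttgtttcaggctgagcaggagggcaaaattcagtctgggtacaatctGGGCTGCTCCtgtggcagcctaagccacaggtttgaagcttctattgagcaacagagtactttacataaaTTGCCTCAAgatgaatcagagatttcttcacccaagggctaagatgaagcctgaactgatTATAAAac
S100Z: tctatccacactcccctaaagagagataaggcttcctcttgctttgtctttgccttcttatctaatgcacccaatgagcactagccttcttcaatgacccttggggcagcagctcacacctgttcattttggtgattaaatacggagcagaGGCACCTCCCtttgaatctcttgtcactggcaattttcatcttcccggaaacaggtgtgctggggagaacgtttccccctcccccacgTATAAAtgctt

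In S100A9 and S100A8 the TATAAA begins 29 bases before the start in both, and neither window shown holds a match to the other motifs. The other 2 S100A8 windows have no TATAAA within 50 bases of the start. One of them holds TATAAA further upstream, where it was not searched for, and 3 overlapping NF-kB-like matches. The S100A12 window has TATAAA 8 bases before the start, one C/EBP-like match and one NF-kB-like match. The S100Z window has TATAAA 11 bases before the start and one NF-kB-like match. Across the family, TATAAA within 50 bases of the start was found for 7 of the 10 genes. It was in 7 of their 14 windows, against 2.63% of the 35116 windows in the table. The other 3 genes with TATAAA were S100A4, S100P and S100A13. The NF-kB-like letters were in 9 of the 14 windows and in 54.4% of all windows, and the C/EBP-like letters in 1 of 14 and in 7.81%. The TATAAA search was added after the sequences had been seen. A match is a description of letters in this window and not a binding site. A window without TTGCNNNAA can still hold other C/EBP-type sequence, which was not searched for.

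**Figure D2:**
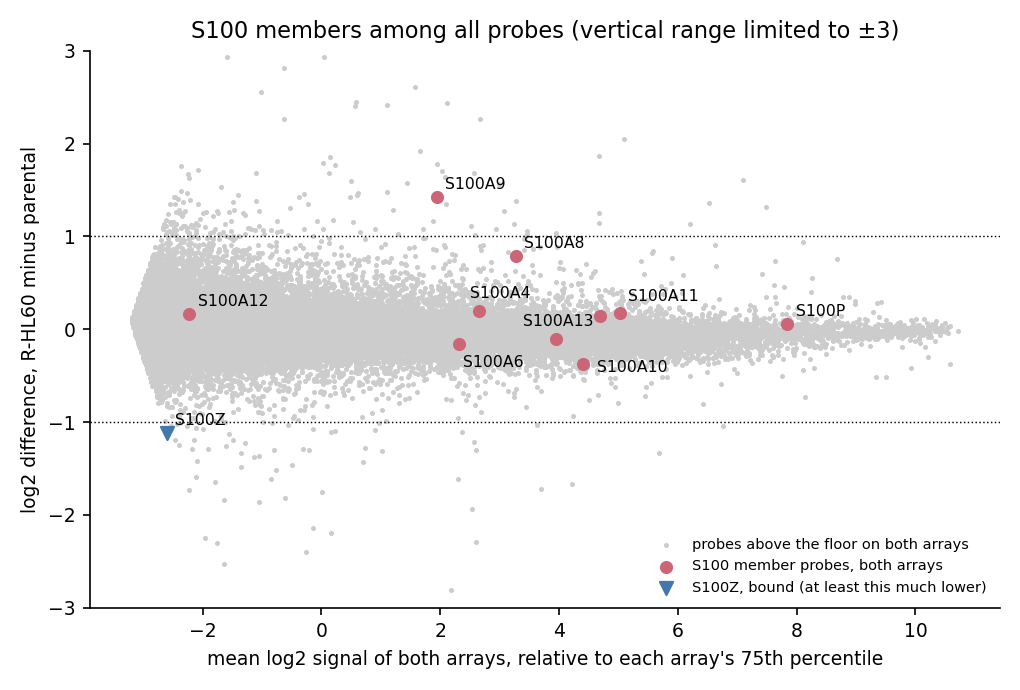
Log2 difference (R-HL60 minus parental) against the mean log2 signal of both arrays relative to each array's 75th percentile, for the 28003 probes above the floor on both arrays (grey) and the S100 members (red circles; S100Z as a triangle at its bound); dotted lines mark 2-fold and the vertical axis is limited to 3 in each direction. S100A9 lies above the upper line and S100A8 just under it, while the other measured members lie within the grey band.

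Among the members that act mainly inside the cell, S100Z aside, S100A10 had the largest difference. It is the light chain that links annexin A2 to the membrane skeleton and to the plasminogen system. Its signal was 7015 in parental cells and 5457 in R-HL60, a difference of -0.37, or 1.29-fold lower and 2.91 times the probe-to-probe SD of 0.13. Within its bin 2.64% of probes had a difference at least as low. Annexin A2 (ANXA2), its binding partner, went the other way by little, at 0.14 and 0.08 on its 2 probes. AHNAK, the giant scaffold protein that the S100A10 and annexin A2 complex binds, was lower on all 3 of its probes, at -0.71, -0.45 and -0.81, none of them past 2-fold.

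S100A11, a ligand of annexin A1, was the one member with 2 probes above the floor on both arrays. The first gave 8907 and 10118 and the second 7174 and 7942. Their differences of 0.18 and 0.14 lay 0.04 apart, less than the probe-to-probe SD of 0.10 to 0.13 at this brightness. The table also lists several S100A11 pseudogenes, whose transcripts these probes may share. Annexin A1 (ANXA1) was lower, with 19735 and 13893 and a difference of -0.51.

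S100A4, which binds non-muscle myosin IIA and is known for cell motility, gave 1710 and 1972. The difference was 0.20, or 1.42 times the probe-to-probe SD. The myosin heavy chain gene MYH9 gave 0.12 on its brighter and -0.11 on its other probe. S100A6, or calcyclin, gave 1542 and 1386 and a difference of -0.16. Its binding protein CACYBP gave differences from -0.25 to -0.13 on 3 probes.

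S100A13, which takes part in the release of FGF1 without a signal peptide, gave 4672 and 4381 and a difference of -0.10, smaller than the probe-to-probe SD of 0.13. FGF1 itself was at 85.4 and 84.8. S100P, which activates ezrin, gave 65740 and 68857, above 99.0% of all probes on the R-HL60 array. Its difference of 0.06 was within the probe-to-probe SD of 0.10 and turned to -0.03 when the arrays were scaled on their medians. Ezrin (EZR) was at -0.03.

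S100Z, a little studied member, was the lowest. It gave 70.9 on the parental array, 2.31 times the floor, and 32.7 on the R-HL60 array, just below the floor of 32.8. Its bound was -1.12, or at least 2.17-fold lower. The call rests on a dim signal: with 50 units added to every signal the bound was at least 1.47-fold, and with the floor at the 60th percentile at least 1.10-fold. S100Z has 1 probe, and its chromosome 5 location lies outside the chromosome 1 cluster.

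**Figure D3:**
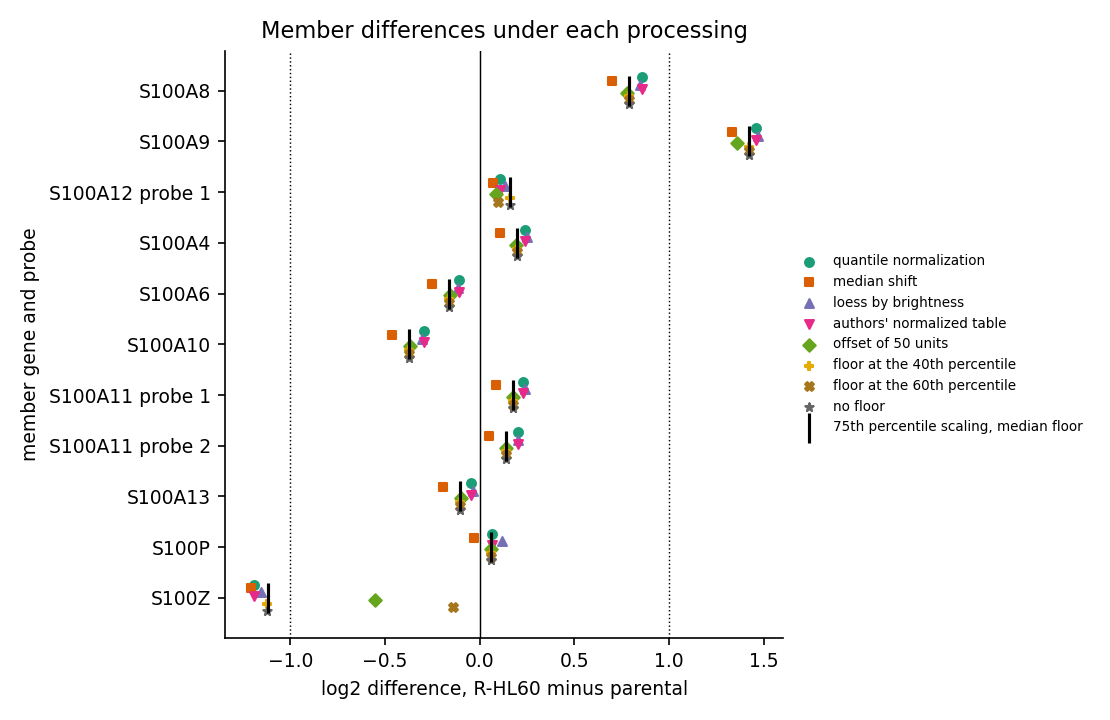
Log2 difference (R-HL60 minus parental) of the 11 member probes above the floor on at least 1 array, as reported (black bars) and under 8 other settings (symbols); dotted lines mark 2-fold. Positions of S100Z are bounds except with the floor at the 40th percentile and without a floor. S100A9 stays right of the upper line in every setting, and S100Z moves most.

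The remaining S100 genes in the files gave no call, that is no difference past 2-fold. Such calls were rare among all genes, at 0.786% upward and 0.297% downward, so their absence from a short list says little. Of 11 further family genes, 5 were below the floor on both arrays, namely S100A1, S100A7A, S100A7L2, S100A14 and S100G. S100A7 was at the floor, with 30.9 and 29.0, and gives no usable bound. S100A7, S100A7A and S100A7L2 are closely related, so their probes may share transcripts. Of the 5 measured, S100A3 had the largest difference at -0.60, from 52.2 to 34.7, both close to the floor. S100A16 gave -0.37, S100A2 0.11 and S100A5 0.04. S100B, best known from glia and melanocytes, gave 616 and 520 on its brighter probe, a difference of -0.25, while its other probe was below the floor on both arrays.

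Most S100 genes lie in 1 cluster on chromosome 1, interleaved with genes of the skin barrier, and their order in the RefSeq table was used to look at neighbours. Of the 16 S100 genes of this cluster, 13 were above the floor on at least 1 array. Their differences ran from -0.60 to 1.42 with a median of 0.04. The 2 high values belong to S100A9 and S100A8, which flank S100A12, whereas S100A6, S100A5 and S100A4 further along lay between -0.16 and 0.20. The 10 protein-coding genes on each side of the cluster had a median of -0.12 over the 16 above the floor and none past 2-fold. The share of all genes past 2-fold was 0.786% in the higher and 0.297% in the lower direction. The largest flanking differences were those of NPR1, a natriuretic peptide receptor gene, at 1.00, just under 2-fold and from 70.3 to 141, and of RIIAD1 at 0.63.

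**Figure D4:**
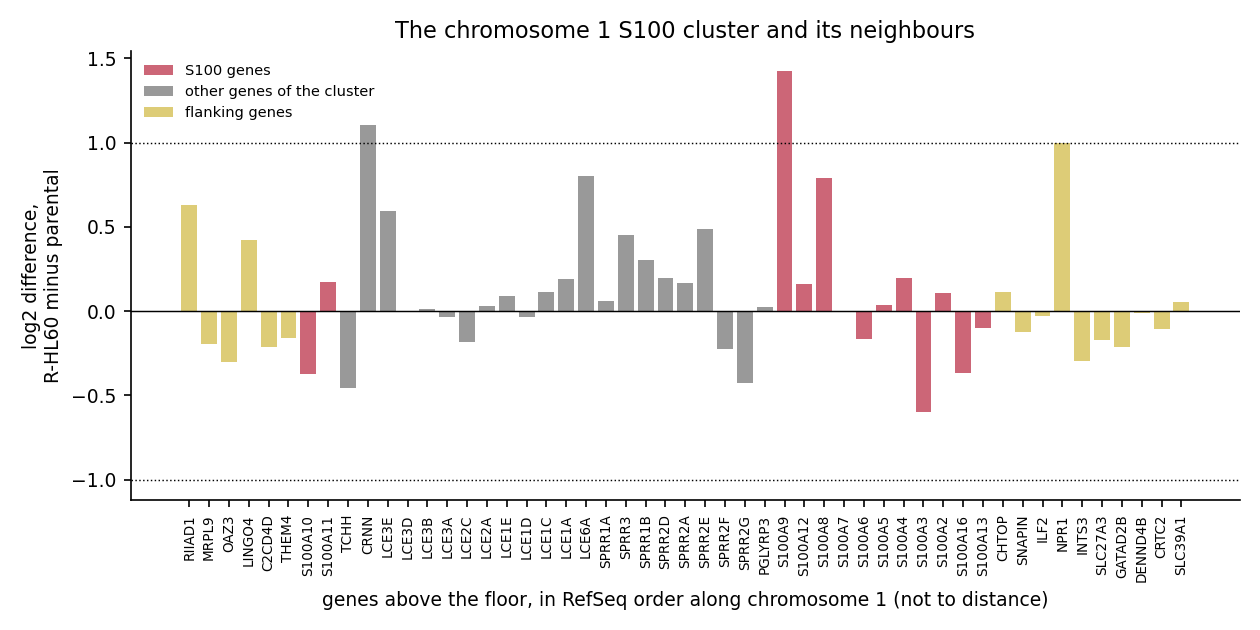
Log2 difference (R-HL60 minus parental) of genes above the floor on at least 1 array, in RefSeq order along chromosome 1, for S100 genes (red), other genes of the cluster (grey) and 10 protein-coding neighbours on each side (yellow, those above the floor); dotted lines mark 2-fold, and S100A7, LCE3D, LCE3E and SPRR2G are bounds. S100A9 is the tallest bar, S100A8 is lower and S100A12 between them is short; S100A3 at -0.60, S100A10 at -0.37 and S100A16 at -0.37 point down.

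Receptors and partners of S100 proteins were compared through a list of 32 genes, 27 of them above the floor. CYBB was the one gene at least 2-fold higher and none was 2-fold lower; over all genes 0.786% were past 2-fold in the higher and 0.297% in the lower direction. The list median was 0.06, and -0.03 when scaled on the medians. CYBB encodes the catalytic subunit of the phagocyte NADPH oxidase, to which calprotectin delivers arachidonic acid. It gave 86.0 and 415, or 4.79-fold higher. Among its oxidase partners NCF1 was at 0.74, while CYBA (0.16), NCF4 (0.02) and RAC2 (-0.03 on its brightest probe) differed less. NCF1 has near-identical pseudogene copies, and its probes may not separate them. Receptor genes on the list lay on both sides of 0 and within 2-fold. TLR4 went from 199 to 272 (0.44, and 0.39 on its other probe), its co-receptor LY96 from 1027 to 1360 (0.40), AGER, which encodes RAGE, from 530 to 693 (0.38 on its brightest probe) and CD69 from 4834 to 7348 (0.60). MCAM was at 0.08, BSG at -0.06, ALCAM at -0.13 and CD33 at -0.18 (-0.21 on its other probe), and CD36 was below the floor on both arrays.

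Myeloid transcription factors showed no difference past 2-fold among 14 genes, with 5 above 0 and a median of -0.07. The median of all genes was -0.03, with 43.3% above 0. Only 0.786% of all genes passed 2-fold upward and 0.297% downward, so finding none in a list of 14 says little about these factors. C/EBP factors and PU.1 are known to drive S100A8 and S100A9 in maturing myeloid cells. CEBPB was at 0.24, SPI1, the gene of PU.1, at 0.08, CEBPE at -0.13, GFI1 at -0.19 and CEBPA at -0.46, from 30891 to 22616. The largest difference was that of EGR1 at -0.67.

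Among genes of granulocyte and monocyte maturation, some were higher in R-HL60, like the calprotectin genes, and others were nearly equal or lower. Of 24 listed genes, 21 had a row and 17 were above the floor. Among these 17 genes, 14 were above 0, with a median of 0.22, 2 reached 2-fold upward and none downward. For comparison, the median of all genes was -0.03, 43.3% were above 0, 0.786% reached 2-fold upward and 0.297% downward. CD68, LYZ and FCGR3B were not analysed here. The gelatinase gene MMP9 went from 657 to 2159 (3.27-fold) and ALOX5AP, which encodes the 5-lipoxygenase activating protein, from 1234 to 2505 (2.02-fold, but 1.90-fold when scaled on the medians and 1.98-fold with 50 units added to each signal). The 3 genes below 0 were the secondary granule gene CAMP at -0.53 and the monocyte genes CSF1R at -0.35 and CD14 at -0.19. CSF3R (0.05) and CD163 (0.08, at 56.2 and 60.0 close to the floor) were nearly equal on both arrays. Of the genes above 0 but short of 2-fold, the largest were CLEC7A (a bound of 0.93), VCAN (0.66), FPR2 (0.62), ITGAX (0.49) and ITGAM (0.40). The CLEC7A and VCAN signals were dim, at 25.9 and 58.7 and at 59.5 and 94.8. LTF and LCN2, also of secondary granules, and the collagenase gene MMP8 were below the floor on both arrays and give no difference. The summed signal of the list was 8847 on the parental and 12758 on the R-HL60 array. Its part in the S100A8 and S100A9 values was not tested.

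Markers of the labelled cell type were present on both arrays. All 6 promyelocytic marker genes were above the floor, with the myeloperoxidase gene MPO at 309491 and 285746. All 6 had differences below 0 (median -0.18), and the elastase gene ELANE, from 700 to 153, was the one past 2-fold at 4.59-fold lower. Over all genes the median was -0.03, 43.3% were above 0 and 0.297% were at least 2-fold lower. Of other cell types, 3 of 7 epithelial, 2 of 6 fibroblast, 4 of 5 melanocyte and Schwann and 8 of 9 lymphoid markers were above the floor on at least 1 array, and by the brightest probe none was past 2-fold. The largest differences were those of KRT19 (0.78), DCN (a bound of 0.29), MLANA (0.52, at 33.3 and 48.0 close to the floor) and LCK (-0.74). MLANA and LCK went against most of their lists. Of the melanocyte and Schwann genes 1 was above 0 and 3 below (median -0.06), and of the lymphoid genes 6 were above and 2 below (median 0.15). The epithelial median was 0.18 and the fibroblast median 0.23, with no gene below 0. The other LCK probe went from 134 to 67.1, just past 2-fold lower. Summed signals on the parental and R-HL60 arrays were 1696 and 1918 for the epithelial, 108 and 124 for the fibroblast, 187 and 196 for the melanocyte and Schwann, and 9788 and 12959 for the lymphoid list. EPCAM, CDH1, COL1A1 and COL3A1 were below the floor on both arrays. The part of these lists in the S100 values was not tested.

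**Figure D5:**
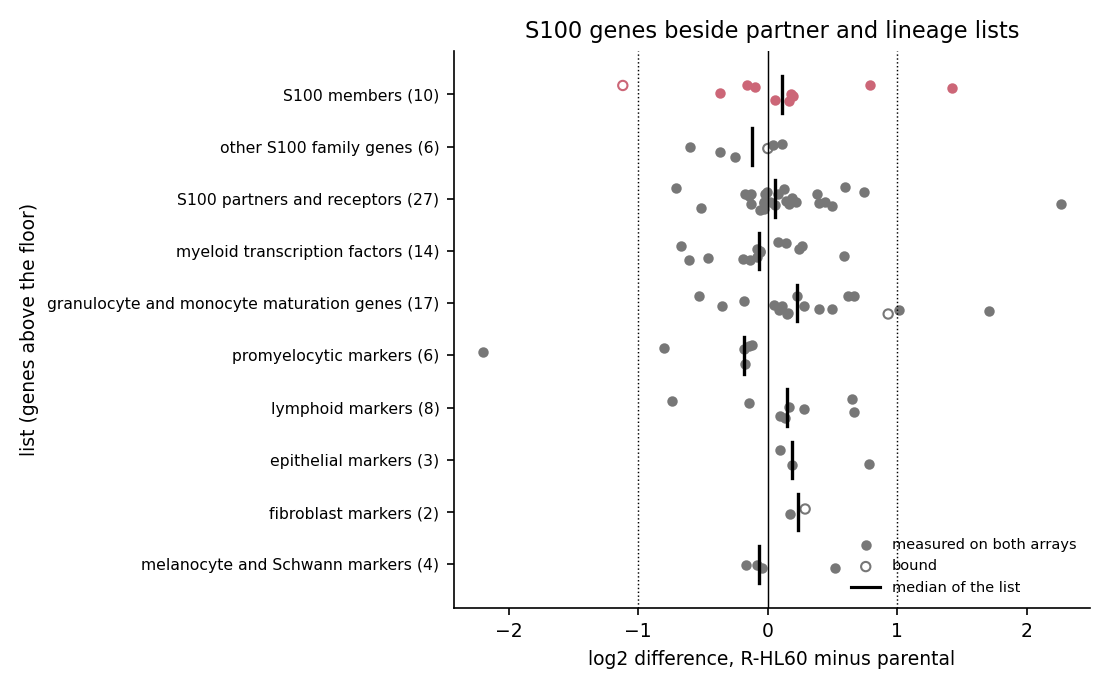
Log2 difference (R-HL60 minus parental) of genes above the floor on at least 1 array for the 10 S100 members (red) and 9 comparison lists (grey), with filled circles for genes measured on both arrays, open circles for bounds and black bars for list medians; dotted lines mark 2-fold and vertical scatter has no meaning. S100A9, CYBB, MMP9 and ALOX5AP lie past the upper line, and S100Z and ELANE past the lower one.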

How the data were processed

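RNA of 1 parental HL60 and 1 R-HL60 culture was measured on Agilent one-colour arrays (Cy3), per the labels' protocols. Agilent Feature Extraction 10.7.3.1 was used, per the submitters' processing notes. Each deposited raw file pairs gene names with 1 linear intensity per probe. Not given in the sources used here are the scanner column, the background treatment, detection flags and the method of the authors' normalized intensities, whose columns share their quartiles. Raw signals were taken to log2 and scaled on each array's 75th percentile, so a signal near background can compress a fold. A gene was represented by its brightest probe in lists and neighbours. With 1 array per line no test was run, and the number of arrays limits the precision. The steps were run on simulated arrays in which known changes were planted in bright probes, with probe-to-probe spread as the only noise. That run covers neither changes in dim probes nor variation between cultures and arrays. The members, lists and motifs were chosen with earlier results of these data known. Named were all S100 genes, fixed partners and regulators whatever their value, members of the other lists past 2-fold, or the largest difference, and the 2 largest flanking differences; other genes were named after their values were seen. Promoter sequences and gene order came from RefSeq tables of GRCh38.p14, in which all 10 members matched by symbol. Python 3.11.15, numpy 2.4.6, pandas 2.3.3, statsmodels 0.14.6 and matplotlib 3.10.9 were used.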

Additional observations from a re-analysis of the deposited data

How the results depend on the processing

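Other scalings were by quantiles, by the median, by loess on brightness and as in the authors' normalized intensities. Further settings added 50 units to each signal, placed the floor at the 40th percentile, at the 60th or nowhere, averaged all probes, or took 1.5-fold or 3-fold as the threshold. A difference was called moved past 0.19, the pooled SD between probes of a gene, and a count past a change of 1.5 times. The count of 2 member probes past 2-fold became 1 with the offset and 1 with the floor at the 60th percentile, since S100Z fell short of 2-fold. It was 0 at a threshold of 3-fold and 3 without a floor, which added the dimmer S100A12 probe (6.10 and 13.7). Over all genes, the shares at least 2-fold higher and lower were 0.786% and 0.297% as reported. They were 0.280% and 0.170% with the offset, 0.543% and 0.266% with the floor at the 60th percentile, and 5.87% and 3.01% without a floor. The share past 3-fold was not computed. The median of the members ran from 0.02 (median shift) to 0.13 (loess). Of 88 differences of member probes 86 moved by less than that SD, the exceptions being S100Z with the offset (-0.55) and with the floor at the 60th percentile (-0.14). S100A9 ran from 1.33 to 1.47 and S100A8 from 0.70 to 0.86, so S100A9 was past 2-fold and S100A8 was not in all 8 settings tried on them. Not all of these settings are separate checks. The floor settings cannot move a probe far above the floor, such as those of S100A9 and S100A8. Quantile scaling and the authors' intensities gave nearly the same values, 1.46 for S100A9 and 0.86 for S100A8 in both. S100P alone changed sign. Dim signals limit S100Z, S100A12 and S100A3. No paired analysis was possible because each line had 1 array.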

Other observations

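Between S100A11 and S100A9 lie genes of the skin barrier, namely late cornified envelope (LCE), small proline-rich (SPRR) and fused S100-type genes. Of 47 protein-coding genes of the cluster other than S100 genes, 42 had a row. On 1 array or both, 22 exceeded the floor, and 15 of these had a difference above 0, with a median of 0.07. Over all genes 43.3% were above 0, with a median of -0.03, and 0.786% were at least 2-fold higher. Of the 22, CRNN, the fused S100-type gene of cornulin, was the one past 2-fold, with signals of 44.2 and 95.5. Its difference was 1.10, or 2.15-fold. That fold came to 1.54-fold with 50 units added to each signal and to at least 1.53-fold with the floor at the 60th percentile. TCHH, the fused S100-type gene of trichohyalin, gave 48.6 and 35.5 and a difference of -0.46. LCE6A was at 0.80, from 59.6 to 105. These signals were close to the floor, where the probe-to-probe SD was 0.26 to 0.29. LCE1D gave 52827 and 51925, nearly equal on both arrays. LCE and SPRR genes are families of closely related copies whose probes may share transcripts. These genes were named after their values were seen.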
